A study of Mus musculus with 4 samples.

Results

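Histone deacetylases take off the acetyl groups that histone acetyltransferases such as HAT1 put on. The accessibility of the chromatin around 10 of their genes was followed here in fibroblasts with and without HAT1. The genes were Hdac1, Hdac2 and Hdac3 of class I, Hdac4, Hdac5, Hdac7 and Hdac9 of class IIa, Hdac11 of class IV, and the sirtuins Sirt1 and Sirt6. Within these genes, sites were taken by position. A site belonged to a gene when it overlapped the gene body or lay within 10 kb of any of its transcription start sites (TSSs) in the GENCODE annotation of mm10. This gave 84 of the 82325 sites in the table.

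The cells were immortalized mouse embryonic fibroblasts (imMEFs) on a C57bl6 background, made from mid-gestation embryos and carrying the SV40 T antigen in both genotypes. HAT1+/+ cells (WT) were compared with HAT1-/- cells (KO), which lack the enzyme that acetylates newly made histone H4. Each genotype had 2 libraries, each from a separate line, so that p-values measure the spread between lines and a difference between lines cannot be separated from one between genotypes beyond that spread. ATAC-Seq reads, which come from DNA that the Tn5 transposase could reach, had been counted over each site, divided by a factor per library and rounded. In such bulk libraries, fewer cells with an open site and less opening per cell cannot be told apart. These scaled values are the normalized counts given below, and all fold changes are KO over WT on the log2(value + 1) scale.

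Class I deacetylases are nuclear enzymes that work inside large co-repressor complexes. HDAC1 and HDAC2 share the SIN3, NuRD and CoREST complexes, and HDAC3 is the catalytic subunit of the NCoR/SMRT complex. Class IIa enzymes move between nucleus and cytoplasm, have little catalytic activity of their own and bind MEF2 transcription factors, through which they restrain muscle gene programmes. HDAC11 is the sole class IV member. Sirtuins are a separate family of enzymes that use NAD+, and SIRT1 and SIRT6 both act on histones in the nucleus.

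The depth behind the values, estimated from the gaps that scaling leaves among the low whole numbers, was about 5650000 to 11400000 reads in sites per library and was lowest in KO replicate 2. Fibroblast identity was checked at the TSSs of marker genes. All 10 fibroblast markers had a site there, and their summed normalized count was 2507 to 2986 in WT and 2870 to 3212 in KO libraries. None of the 4 muscle markers (Myod1, Myog, Myf5, Pax7) had one. Sums were lower for the immune (70 to 114 over 2 of 4 genes), endothelial (110 to 194 over 3 of 4) and epithelial lists (130 to 232 over 4 of 4). These sums, the fibroblast one included, cover unlike numbers of genes and do not rank the lists. Single markers of different lists overlapped in value. The part of the immune, endothelial and epithelial signal in the values below was not tested. Hat1 itself had a promoter site with normalized counts of 390 and 384 in WT and 438 and 368 in KO. That site stayed open, so accessibility does not check the genotype labels.

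The sequences before the start sites are shown for Hdac2 and Hdac4, whose promoters were accessible, and for Hdac9, where no site overlapped them. These examples do not stand for every member. They come from RefSeq (GRCm38.p6, the assembly also called mm10), which held promoter windows for 8 of the 10 genes, with no entry for Hdac1 or Hdac3. Each line gives the 250 bases upstream of a start, 5′ to 3′ on the strand of the gene. Capitals mark matches, on either strand, to the 7 motifs searched: TGANTCA (AP-1), GGGCGG (GC box), CCAAT, TGACGTCA (CRE), CCGGAAGT (ETS), GCGCATGC (NRF1) and CTANNNNTA (MEF2).
Hdac2, chr10:36974294-36974543, plus strand: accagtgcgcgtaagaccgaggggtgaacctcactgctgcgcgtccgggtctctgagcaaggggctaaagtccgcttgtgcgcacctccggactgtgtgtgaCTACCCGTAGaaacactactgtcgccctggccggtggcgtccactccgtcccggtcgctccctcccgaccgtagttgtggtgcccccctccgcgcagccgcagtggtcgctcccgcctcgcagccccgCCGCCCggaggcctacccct
Hdac4, chr1:92180342-92180591, minus strand: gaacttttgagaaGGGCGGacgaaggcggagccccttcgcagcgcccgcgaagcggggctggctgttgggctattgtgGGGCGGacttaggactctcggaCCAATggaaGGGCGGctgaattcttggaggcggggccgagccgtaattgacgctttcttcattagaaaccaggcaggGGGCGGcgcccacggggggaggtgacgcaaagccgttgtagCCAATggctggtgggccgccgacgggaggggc
Hdac9, outermost start, chr12:34917096-34917345, minus strand: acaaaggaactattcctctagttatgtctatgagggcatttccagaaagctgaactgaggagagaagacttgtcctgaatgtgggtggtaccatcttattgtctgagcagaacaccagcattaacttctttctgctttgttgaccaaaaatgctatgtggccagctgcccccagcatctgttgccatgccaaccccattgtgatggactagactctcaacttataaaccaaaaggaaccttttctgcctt
Hdac9, inner start, chr12:34528890-34529139, minus strand: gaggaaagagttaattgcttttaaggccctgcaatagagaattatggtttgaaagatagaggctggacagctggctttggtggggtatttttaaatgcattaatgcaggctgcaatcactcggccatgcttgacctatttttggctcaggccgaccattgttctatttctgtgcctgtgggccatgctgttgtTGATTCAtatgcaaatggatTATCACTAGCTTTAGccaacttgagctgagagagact

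The 250 bases before the Hdac4 start held 23 CpG dinucleotides, 4 GC boxes and 2 CCAAT matches, and those before the Hdac2 start held 27 CpGs, 1 GC box and 2 overlapping MEF2 matches. By contrast, the outermost Hdac9 start had no CpG and none of the motifs, and the inner one had 2 CpGs, 1 AP-1 match and 3 overlapping MEF2 matches. With the 50 bases after the start included, GGGCGG was found in 35.7% of all 32851 RefSeq promoter windows, CCAAT in 37.4%, CTANNNNTA in 21.0% and TGANTCA in 7.8%. A match is a description of the letters and not a bound site. The MEF2 pattern allows any base at its middle positions, so its matches, such as CTACCCGTAG before Hdac2, need not be MEF2 sites. Of the 13 RefSeq windows of deacetylase genes, 10 overlapped a site. The 3 that did not were both Hdac9 windows, with 0 and 3 CpGs over 300 bases, and the outermost of the 4 Hdac7 windows, with 6, against a median of 7 over all windows. The windows over a site held 5 to 47 CpGs.

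Sites were spread unevenly over the family. Hdac9 and Hdac4, the longest genes (869.5 and 266.9 kb), had 27 and 15 sites, Hdac7 had 11, Hdac5 8, Hdac11 6, Hdac1 and Sirt1 5 each, Hdac3 3, and Hdac2 and Sirt6 2 each. In all, 25 sites lay within 3 kb of a TSS of their gene, 46 were intronic, 2 touched an exon and 11 were flanking. Some of these also served other genes. At 14 sites the TSS of another gene lay within 1 kb, among them Marcksl1 next to Hdac1, Rell2 at the Hdac3 promoter, Dnajc12 next to Sirt1 and Ankrd24 at both Sirt6 sites, and such sites cannot be assigned to a single gene. The flanking site nearest to the 10 kb limit on the inside was the one at Slc48a1, 9460 bases from a Hdac7 TSS (log2 fold change 0.00). The nearest on the outside lay 11021 bases from a Hdac5 TSS and read 155 and 122 in WT and 119 and 150 in KO (-0.04).

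Promoters of all members but Hdac9 were open, at levels from ordinary to very high. Here the promoter site of a gene is the site with the highest mean normalized count within 1 kb of one of its TSSs, and levels are compared between genes per kb of site. Hdac4 stood at the top with 598 ± 21.3 per kb in WT and 738 ± 85.3 in KO (SD, n = 2 each), and its mean over the 4 libraries exceeded 98.0% of the promoter sites of 13835 protein-coding genes. Next came Hdac7 at 420 per kb, Hdac1 at 383, Hdac11 at 347 and Hdac5 at 327. Lowest were Sirt1 at 300, Hdac2 at 299, Hdac3 at 286 and Sirt6 at 281 per kb, all still above the median of 263 over all those promoter sites. For Sirt1 this rested on a near tie, a mean count of 156.5 against 156.0 at a longer site over its RefSeq start. That longer site had 128 per kb, below the median. Differences among the neighbours below Hdac4 were small beside the spread of the libraries. For example, Hdac11 ranged from 277 to 398 per kb within WT alone, a range that covered the 4-library means of every promoter from Sirt6 up to Hdac1.

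**Figure D1:**
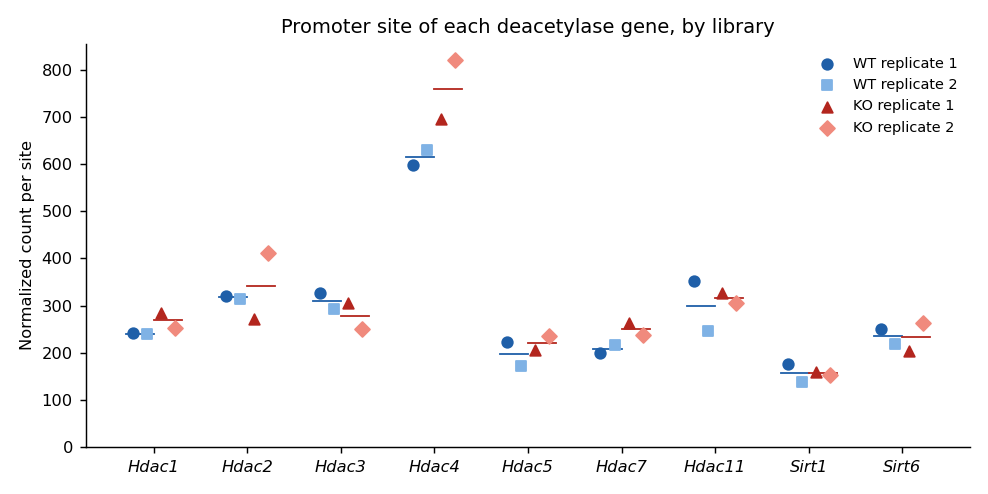
Normalized count of the promoter site (vertical axis, linear from 0) of the 9 deacetylase genes that had one, with 1 point per library and horizontal lines for the genotype means. The Hdac4 site stands above all others, with 599 and 630 in WT and 697 and 821 in KO, and most other genes show overlapping genotypes.

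The question put to these data was whether loss of HAT1 changed accessibility at the genes of the opposing enzymes. No deacetylase site passed the call used for the series, an unadjusted p under 0.01 with a change of at least 2-fold in the limma fit over all sites. In the table as a whole 307 sites, or 0.373%, passed it. An unadjusted p under 0.05 was reached at 3 of the 84 sites, against 3.13% of all sites (1266 higher and 1313 lower in KO). All 3 deacetylase sites had higher values in KO. Their adjusted p was 1, as was the lowest adjusted p of the whole table. Across the 84 sites the median log2 fold change was 0.06, beside 0.01 over all sites, and the values ran from -1.20 to 1.04. The KO libraries both lay above both WT libraries at 14 deacetylase sites (all sites, 14.6%) and both below at 8 (all sites, 14.3%). With equal library totals these counts were 9 and 11, beside 10.9% and 19.0% of all sites.

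**Figure D2:**
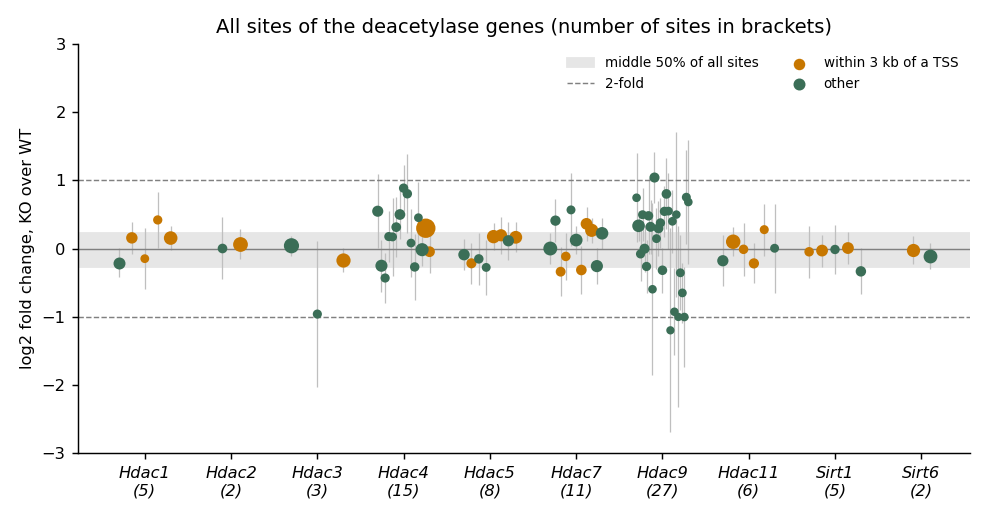
The log2 fold change, KO over WT, of each of the 84 sites by gene (vertical axis), with bars for the SE, point area growing with the mean normalized count, orange for sites within 3 kb of a TSS of the gene and green for others. Most sites sit near 0, and the widest scatter, from -1.20 to 1.04, belongs to the intronic sites of Hdac9.

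By class, the 10 class I sites had a median log2 fold change of 0.03, the 61 class IIa sites 0.17, the 6 Hdac11 sites 0.00 and the 7 sirtuin sites -0.03. Within class IIa the medians were 0.18 for Hdac4, 0.01 for Hdac5, 0.13 for Hdac7 and 0.32 for Hdac9. Sites within 3 kb of a TSS had a median of 0.01 and a range of -0.34 to 0.42, and sites further away had a median of 0.08 and a range of -1.20 to 1.04. Scaling every library to an equal total lowered sites in general, with a median of -0.01 over the 84 sites beside -0.06 over all sites.

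Hdac1, whose product is the core enzyme of several co-repressors, had its promoter site at chr4:129542491-129543155. The normalized counts there were 242 and 239 in WT and 284 and 253 in KO, a log2 fold change of 0.16 ± 0.17 (SE; unadjusted p = 0.393). Both KO values lay above both WT values, but the gap was within the error of the fit. A pair of sites about 28 to 29 kb downstream, at the TSS of Marcksl1, went opposite ways by small amounts. The site at chr4:129513264-129513826 read 184, 168, 159 and 146 (WT replicates 1 and 2, then KO replicates 1 and 2, the order kept from here on) and its neighbour at chr4:129514323-129514934 read 136, 123, 143 and 146.

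The promoter site of Hdac2, the close paralog of Hdac1, was the longest of the 9 with 1104 bases (chr10:36974034-36975137) and covers the promoter sequence printed above. It read 321, 314, 271 and 412, so that the WT lines were alike and the KO lines lay on either side of them. The log2 fold change was 0.07 ± 0.22 (SE; unadjusted p = 0.749). Leaving out KO replicate 2 turned it to -0.23, and leaving out KO replicate 1 raised it to 0.37. The other Hdac2 site, 8381 bases upstream, was weak, with 39, 77, 44 and 69.

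Hdac3, the catalytic subunit of NCoR/SMRT, shares its promoter site (chr18:37954526-37955552) with the start of Rell2. Normalized counts were 327, 293, 306 and 250, a log2 fold change of -0.16 ± 0.18 (SE; unadjusted p = 0.393) with overlapping genotypes. The value was -0.0165 without KO replicate 2 and -0.31 without KO replicate 1. Its other strong site, at chr18:37934951-37935835, was the highest of all deacetylase sites outside promoters and lies at the start of Diaph1. There the 4 values were 378, 322, 364 and 355. In contrast, an intronic site at chr18:37948863-37949275 read 43, 34, 67 and 5, and the KO lines disagreed more than the genotypes did. Without KO replicate 1 it would pass the call (log2 fold change -2.71, unadjusted p = 0.00876), the one call that any left-out library produced at the family. Of all sites 0.333% passed the call in that setting, in which KO replicate 2 stood alone and was assumed to vary like the WT lines. With KO replicate 1 alone the value was 0.79.

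Among the class IIa genes, Hdac4 had the strongest promoter site and the lowest p of the promoters. The site at chr1:92180156-92181183, over the inner start whose GC-rich sequence is printed above, read 599, 630, 697 and 821. Both KO lines were above both WT lines, by a log2 fold change of 0.30 ± 0.11 (SE; 95% interval 0.04 to 0.56; unadjusted p = 0.0315, limma adjusted p = 1). The size depended on scaling and on 1 line, falling to 0.11 after quantile normalization (unadjusted p = 0.274) and to 0.18 without KO replicate 2. A second promoter site near the outermost start, chr1:92195778-92196390, read 93, 119, 121 and 86 and showed no separation.

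Inside Hdac4, a site about 119 kb into the gene (chr1:92076249-92076562, intronic) read 34, 30, 57 and 63. Its log2 fold change of 0.89 ± 0.34 (SE; unadjusted p = 0.0393, limma adjusted p = 1) came with close agreement within each genotype, and it lay between 0.80 and 0.97 when any 1 library was left out, with unadjusted p from 0.0556 to 0.127. The centre of this site, 300 bases on the plus strand, is shown because it varied less within genotypes than the other intronic site with an unadjusted p under 0.05. It held 1 AP-1 match and 1 MEF2 match, both in capitals, and no CpG.
Hdac4 intronic site, chr1:92076256-92076555: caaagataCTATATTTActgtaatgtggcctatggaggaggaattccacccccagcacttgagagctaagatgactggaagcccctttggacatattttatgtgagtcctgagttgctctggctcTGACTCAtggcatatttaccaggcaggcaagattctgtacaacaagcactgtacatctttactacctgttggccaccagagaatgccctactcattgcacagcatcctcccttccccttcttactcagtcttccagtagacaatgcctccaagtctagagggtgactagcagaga

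Elsewhere in Hdac4 the lines disagreed. The site with the highest value among its other introns, chr1:92130142-92130990, read 184, 274, 213 and 232, with a log2 fold change of -0.01. Toward the 3′ end, chr1:91944930-91945791 read 53, 157, 173 and 104 and chr1:91956122-91956750 read 171, 186, 222 and 101. These had the highest (0.55 ± 0.54) and the lowest (-0.25 ± 0.38, SE) log2 fold change among the Hdac4 sites of at least median strength, and neither exceeded the spread between lines. Over the 15 sites, 10 log2 fold changes were above 0 and 5 below.

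Hdac5 and Hdac7 showed smaller values. The Hdac5 promoter site, chr11:102229898-102230537, read 223, 172, 206 and 235, and its 8 sites ran from -0.27 to 0.20 on the log2 scale, 4 above and 4 below 0. Both KO lines lay below both WT lines at 3 of them (all sites, 14.3%), of which chr11:102201318-102201864 read 76, 84, 63 and 75. The highest log2 fold change of the gene, 0.20 ± 0.27 (SE), was at chr11:102218665-102219215 with 201, 130, 180 and 191. At Hdac7 the promoter site, chr15:97832120-97832665, read 200, 216, 264 and 238, a log2 fold change of 0.27 ± 0.18 (SE; unadjusted p = 0.187). The adjoining site at chr15:97831470-97832008, which overlaps a pair of RefSeq start windows, read 150, 117, 187 and 156 (0.36 ± 0.25). Both had KO above WT without overlap, as did 14.6% of all sites. Other Hdac7 sites went either way, from chr15:97812132-97812590 with 58, 93, 56 and 60 to chr15:97786729-97787014 with 61, 86, 105 and 89. Its strongest sites outside promoters hardly differed, with 263, 278, 329 and 223 at the start of Slc48a1 (chr15:97784089-97784985) and 204, 187, 231 and 197 in an intron (chr15:97824963-97825710).

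Hdac9 had a different layout from the rest. It had more sites than any other member but none within 1 kb of a TSS, the nearest being 4430 bases away. Its 27 sites were mostly weak, with a median normalized count of 31.0 beside 52.0 over all sites. The strongest, chr12:34075753-34076534 near the 3′ end, read 154, 201, 212 and 233. The log2 fold change there was 0.34 ± 0.22 (SE; unadjusted p = 0.177).

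The largest log2 fold change of the family was in an Hdac9 intron about 621 kb from the outermost start, at chr12:34295919-34296666. It read 46, 49, 74 and 132, or 1.04 ± 0.38 (SE; unadjusted p = 0.0313, limma adjusted p = 1). The WT lines were alike and the KO lines far apart, so that the value fell to 0.63 without KO replicate 2 and reached 1.46 without KO replicate 1. The central 300 bases of this site, on the plus strand, had a GC content of 41.7%, 2 CpGs and none of the 7 motifs, and are shown for that contrast with the Hdac4 site.
Hdac9 intronic site, chr12:34296143-34296442: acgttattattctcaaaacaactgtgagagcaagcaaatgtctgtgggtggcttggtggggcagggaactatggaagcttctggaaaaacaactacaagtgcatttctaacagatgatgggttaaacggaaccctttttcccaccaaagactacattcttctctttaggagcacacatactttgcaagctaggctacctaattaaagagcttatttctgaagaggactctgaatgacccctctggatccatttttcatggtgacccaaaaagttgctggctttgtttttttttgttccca

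**Figure D3:**
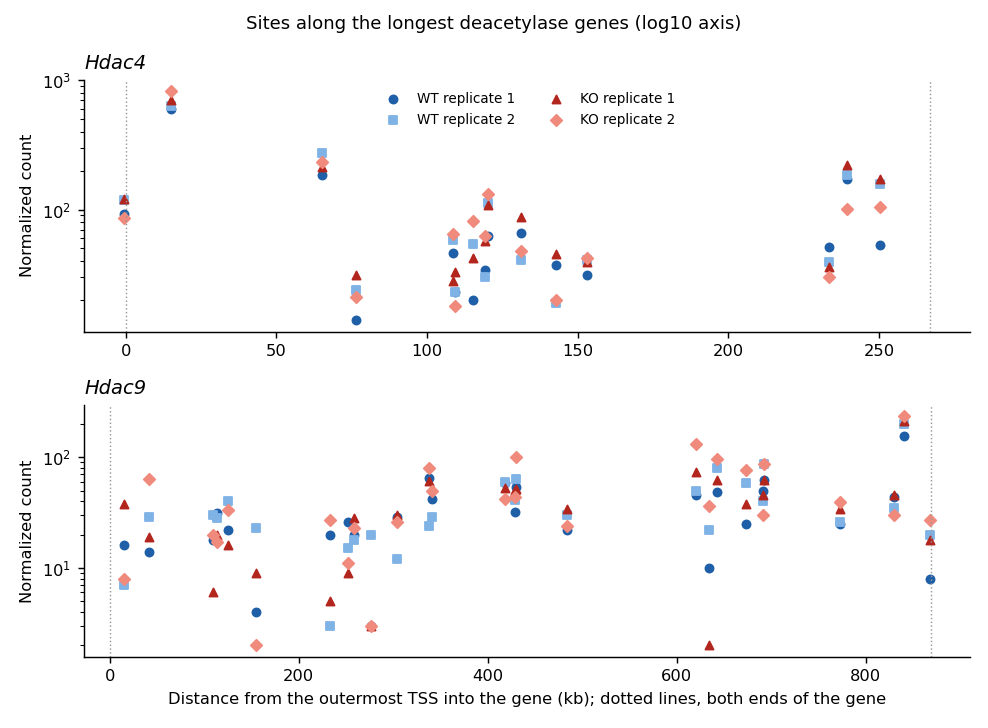
Normalized count (log10 vertical axis) of each site of Hdac4 (top) and Hdac9 (bottom) against its distance in kb from the outermost TSS, with 1 point per library. Hdac4 has its strongest site at its inner start, whereas the 27 Hdac9 sites are mostly weak, the strongest being the one near the 3′ end with 154 to 233.

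Position within Hdac9 went with the sign of the value, a pattern picked out after the values were seen and therefore given without a test. Of the 8 sites from 100 to 280 kb into the gene, 6 had a log2 fold change below 0, with a median of -0.79. Summed over them, the normalized counts were 144, 177, 96 and 136. In the other 19 sites 14 values were above 0, with a median of 0.38 and sums of 804, 914, 985 and 1225. All 8 sites of the first stretch were weak, with means of 7.25 to 27.8, and at such levels a few reads make a large log2 difference. Over all sites of the table below median strength, the median log2 fold change was -0.10 and 41.9% were above 0. The part of site strength in the Hdac9 pattern was not tested. The lowest log2 fold change among Hdac9 sites of at least median strength, -0.32 ± 0.33 (SE), was at chr12:34498889-34499343 with 58, 60, 53 and 42.

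The AP-1 letters TGANTCA were found in the central 300 bases of 15 of the 27 Hdac9 sites (55.6%), beside 46.0% of all sites more than 3 kb from any TSS. They occurred in 27 of the 59 deacetylase sites outside promoters (45.8%) and in 6 of the 25 within 3 kb of a TSS (24.0%, beside 22.5% of all sites near a TSS). GC boxes had the opposite distribution, with 10 of 25 promoter sites (40.0%, beside 37.2%) and 8 of 59 others (13.6%, beside 6.4%), although those 59 include sites at the starts of other genes. The MEF2 letters were in 18 of the 59 sites outside promoters (30.5%, beside 28.4%). No deacetylase window held the CRE, which was in 0.8% of all windows, and the ETS and NRF1 letters were in 2 and 1 of the 84.

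The median size of the log2 fold changes was 0.03 at the sirtuins, 0.14 at Hdac11, 0.16 for class I and 0.32 for class IIa. It was 0.25 over all sites and 0.35 over all sites below median strength. In the same order of classes, the median normalized counts of the sites were 156, 66.25, 150.6 and 50.25. The part of site strength in these sizes was not tested. The Hdac11 promoter site (chr6:91156383-91157266) read 352, 245, 326 and 305, and the WT lines differed more than the genotypes. Its log2 fold change was 0.10 ± 0.21 (SE; unadjusted p = 0.641), the highest among its stronger sites, and the lowest, at chr6:91173459-91173940, was -0.22 ± 0.29. At Sirt1 a pair of sites was equally strong. The one nearest the outermost start, chr10:63382544-63383064, also serves Dnajc12 and read 175, 138, 160 and 153, while the one over the RefSeq start, chr10:63338378-63339595, read 176, 140, 152 and 156. Their log2 fold changes were 0.01 ± 0.24 and -0.03 ± 0.23 (SE). The lowest Sirt1 value, at chr10:63386441-63386849, came from KO replicate 2 with 62, against 104, 96 and 101 in the other libraries. Sirt6 read 250, 219, 203 and 262 at its promoter (chr10:81627142-81627971) and 285, 268, 227 and 292 at the flanking site (chr10:81633370-81634058), both shared with Ankrd24, with KO replicate 1 lowest and KO replicate 2 highest at each.

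To give 1 value per gene, the normalized counts of all its sites were summed and fitted with limma over 17052 protein-coding genes. No deacetylase gene reached an unadjusted p of 0.05, which 3.94% of all genes did, and none of all genes (0.0%) had an adjusted p under 0.05, with a lowest value of 0.364. The largest values were Hdac9, with 948, 1091, 1081 and 1361 (0.25 ± 0.15, SE; unadjusted p = 0.139), and Hdac4, with 1484, 1808, 1933 and 1863 (0.21 ± 0.14; unadjusted p = 0.165). Hdac4 was the 1 gene of the 10 whose KO sums both exceeded both WT sums, as did 23.0% of all genes, and no deacetylase gene had both KO sums below both WT sums, against 11.7%. The Hdac9 value was 0.0880 without KO replicate 2 and 0.42 without KO replicate 1 (unadjusted p = 0.0412), and the Hdac4 value was 0.0698 without WT replicate 1 and 0.35 without WT replicate 2. The other 8 genes lay between -0.07 for Sirt1 and 0.08 for Hdac7. Intervals of 95% reached from 0.29 to 0.52 on either side of these values. With 2 lines per genotype, a smaller change in a gene sum would not reliably be seen, and a larger one could also be missed. The median over the 10 genes was 0.06, beside 0.05 over all genes, and with equal totals both fell, to -0.02 and -0.03. With quantile normalization it was -0.04, beside 0.01 over all genes.

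**Figure D4:**
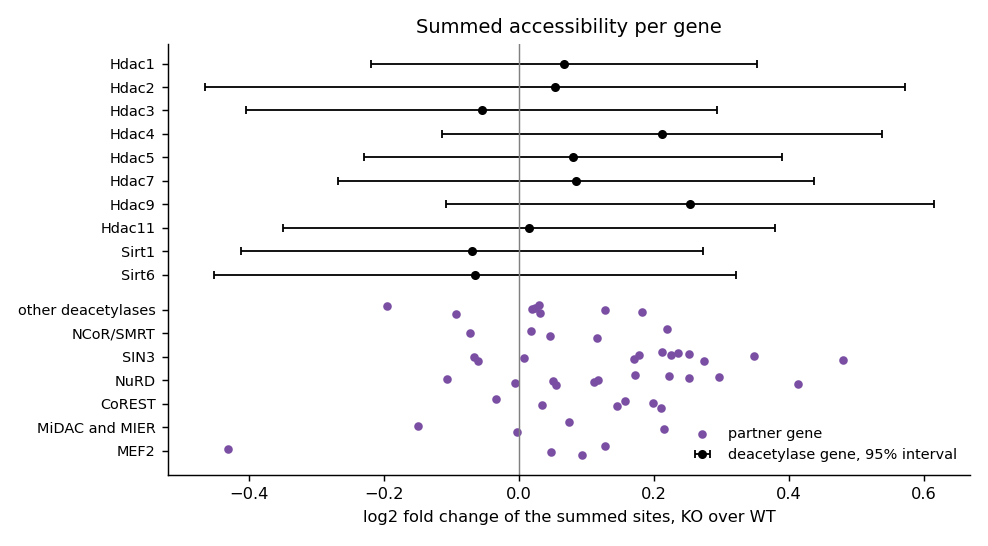
The log2 fold change, KO over WT, of the summed normalized counts per gene (horizontal axis), with 95% intervals for the 10 deacetylase genes. Single points show 50 further genes grouped by complex or family, made up of partners and 8 other deacetylases and sirtuins. Every deacetylase interval crosses 0, and Hdac9 (0.25) and Hdac4 (0.21) lie furthest to the right.

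The study defined large HAT1-dependent domains of lower accessibility in primary MEFs. Its rule was applied here to the fold changes of the imMEF lines, taking stretches with a mean log2 fold change under -0.58 over 25 consecutive sites and joining those no more than 1 Mb apart. This gave 167 domains, in which 468 of 17052 genes (2.74%) had a site. None of the 10 deacetylase genes did, and at that share a count of 0 in 10 genes does not set them apart. Window means over their sites ran from -0.14 at Sirt1 to 0.35 at Hdac9. Around Hdac2, however, the mean of 0.21 hid KO lines that went opposite ways, a feature noticed after the values were seen. In the 25 sites centred on its promoter, KO replicate 1 differed from the WT mean by -0.66 and KO replicate 2 by 1.08 on the log2 scale, and WT replicate 1 exceeded WT replicate 2 by 0.50. The KO lines thus stood 1.74 apart, a larger gap than in 99.1% of the 81829 windows of the genome.

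The contrast lay mainly in the sparse sites upstream of the gene and less in Hdac2 itself. Over the 11 window sites upstream, spread over 1.95 Mb (chr10:34904202-36852956), the summed normalized counts were 429, 205, 132 and 831, and KO replicate 2 was above both WT lines at 9 of the 11 sites. For example, chr10:36506615-36507566 read 99, 61, 13 and 217. The pair of Hdac2 sites summed to 360, 391, 315 and 481, in the same order of KO lines but with a much smaller gap. Downstream, 12 sites summed to 1038, 1043, 892 and 1309. Chromosome 10 as a whole showed no such split, with median differences from the WT mean of -0.03 for KO replicate 1 and 0.00 for KO replicate 2. Without KO replicate 2, Hdac2 alone of the 10 genes would fall in a domain of lower accessibility, as would 7.44% of all genes.

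**Figure D5:**
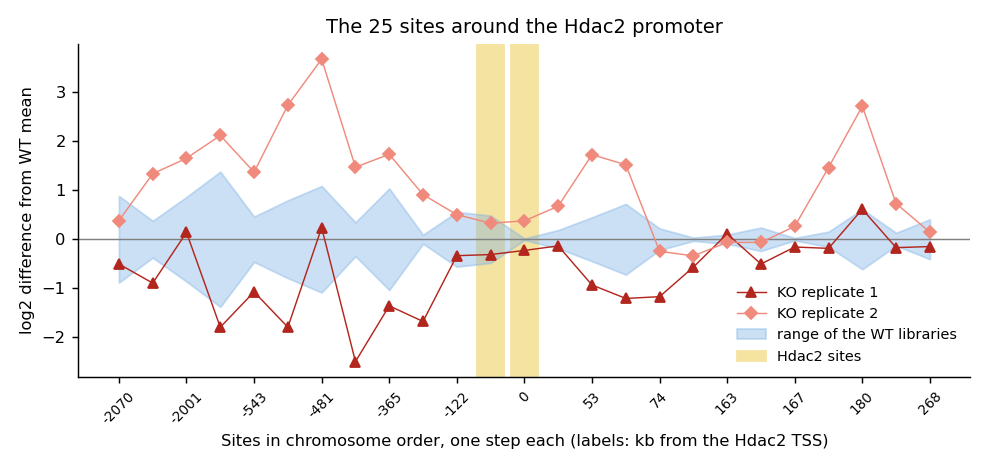
Difference of each KO library from the WT mean (log2 scale, vertical axis) at the 25 sites around the Hdac2 promoter, in chromosome order at one step per site (horizontal axis, labelled in kb from its TSS), with the span of the WT libraries shaded blue and the Hdac2 sites marked yellow. The lines separate most over the upstream sites and come closer at the gene itself, with further gaps downstream.

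A list of 50 genes, called partner genes here, held partners of these enzymes and the 8 other deacetylases and sirtuins. All 50 had sites, 241 in total. None of those sites passed the call, which 0.373% of all sites did. In the gene sum fit, 1 gene reached an unadjusted p of 0.05. This was Mta2, a core subunit of NuRD, with 618, 575, 886 and 713 over 2 sites, or 0.41 ± 0.14 (SE; unadjusted p = 0.0252, limma adjusted p = 0.928). The share of genes past that p with higher values in KO was 2.15% over all genes, and with lower values 1.79%. The Mta2 value was 0.26 without KO replicate 1 and 0.57 without KO replicate 2.

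Values above 0 were common on the list, with 39 of 50 genes and a median of 0.11, beside 60.0% and 0.05 over all genes. With equal totals 27 were above 0 (all genes, 42.9%), and with quantile normalization 31 (all genes, 53.0%). SIN3 subunits had the highest median, 0.22 over 12 genes, of which 10 were above 0. That median was 0.14 with equal totals and 0.10 with quantile normalization. Medians were 0.12 for the 11 NuRD genes, 0.15 for the 6 CoREST genes, 0.05 for the 5 NCoR/SMRT genes, 0.04 for the 4 MiDAC and MIER genes, 0.07 for the 4 MEF2 genes and 0.03 for the 8 other deacetylases and sirtuins. The highest value on the list was that of Sap18, a SIN3-associated protein with a single weak site of 50, 36, 71 and 50 (0.48 ± 0.39; unadjusted p = 0.256). The lowest was that of Mef2c, a MEF2 factor that class IIa deacetylases bind, with 430, 399, 251 and 375 over 6 sites (-0.43 ± 0.21; unadjusted p = 0.0837). The Mef2c value was -0.14 without KO replicate 1 and -0.72 without KO replicate 2.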

How the data were processed

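ATAC-Seq was done on 4 imMEF libraries, 2 WT and 2 KO. Per the labels, the authors mapped the read pairs with BWA 0.7.12 (mm10), used MACS2 2.1.0 for peaks and DESeq2 to compare genotypes. The deposited table gives a score for every merged region in each library, a read count that the authors scaled by library and rounded. Read filtering and the Tn5 offset were not given in the sources used here. The table also holds fold changes and p-values of the authors' own comparison, which were not used. Because the values are scaled, a count test was not applied.

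Every site and every gene sum was fitted with limma 3.58.1 (intensity trend, R 4.3.3) on log2(value + 1), with Benjamini-Hochberg adjustment over the whole table. Sites were called where the unadjusted p was under 0.01 and the log2 fold change reached 1 in size. The fit was tested on simulated data. Libraries were numbered by accession. The names of WT replicate 1 and KO replicate 2 share a line number whose meaning the labels do not give, and no pairs were formed. Members and lists were chosen with earlier results of these data known. Named sites were, by rule, promoter sites, calls, the largest fall and rise per gene with at least 5 sites (among sites with a mean at or above the median), the 5 strongest sites outside promoters, and partner genes past an unadjusted p of 0.05 or with the largest fall or rise; others were named after their values were seen. Alternatives were a pseudocount of 8, equal totals, quantile normalization, stronger sites only and leaving out each library. Gene models were GENCODE vM21. Per-library depth was approximate and its counting error was larger in the KO libraries.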

Additional observations from a re-analysis of the deposited data

How the results depend on the processing

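No paired analysis was possible because the genotypes share only 1 line number, that of WT replicate 1 and KO replicate 2, and the labels do not say what it marks. No site was called at the deacetylase genes with the values as deposited, a pseudocount of 8, equal totals, quantile normalization, stronger sites only, no fold filter, an adjusted p under 0.05, or sites within 3 kb of a TSS only; leaving out 1 library gave 0 to 1 calls, the 1 being the Hdac3 intronic site without KO replicate 1. No gene sum or promoter site had an adjusted p under 0.05 in any setting. The median log2 fold change of the sites (0.06) became -0.01 with equal totals, 0.02 with quantile normalization and 0.0097 within 3 kb of a TSS, and 0.0501 to 0.107 with 1 library left out. With equal totals the median over all sites also fell, from 0.01 to -0.06. Sites without overlap then numbered 9 KO-higher and 11 KO-lower (all sites, 10.9% and 19.0%), and among the 44 stronger sites 8 and 4 (all stronger sites, 19.6% and 10.2%). The count of genes in a domain was 0 to 1 with 1 library left out.

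Signs of small values turned as follows. Equal totals moved the median of all gene sums from 0.05 to -0.03, and quantile normalization moved it to 0.01. With equal totals, the gene sums were -0.0104 for Hdac1, -0.0237 for Hdac2 and -0.0618 for Hdac11, and the Sirt1 promoter site was -0.0584. With quantile normalization, the gene sums were -0.0233 for Hdac1, -0.0312 for Hdac5, -0.0449 for Hdac7 and -0.0757 for Hdac11, and the promoter sites -0.0447 for Hdac2 and -0.0536 for Sirt1. Averaging sites in place of summing them gave -0.0086 for Hdac5 and -0.0022 for Hdac11. Leaving out 1 library gave gene sums from -0.25 to 0.36 for Hdac2, -0.19 to 0.0809 for Hdac3, -0.0492 to 0.21 for Hdac5, -0.10 to 0.27 for Hdac7, -0.14 to 0.17 for Hdac11, -0.18 to 0.0427 for Sirt1 and -0.25 to 0.12 for Sirt6. Promoter sites then ranged from -0.23 to 0.37 for Hdac2, -0.16 to 0.36 for Hdac11, -0.16 to 0.18 for Sirt1, -0.20 to 0.16 for Sirt6 and -0.0193 to 0.35 for Hdac5. Without a turn, 1 left-out library also gave gene sums from 0.0142 to 0.12 for Hdac1, 0.0698 to 0.35 for Hdac4 and 0.0880 to 0.42 for Hdac9, and promoter sites from 0.0728 to 0.24 for Hdac1, -0.31 to -0.0165 for Hdac3 and 0.18 to 0.42 for Hdac4. The cause of the turns with 1 library left out was not tested.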
